A study of Mus musculus with 6 samples.

Results

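Genes that mark mesothelium and simple epithelia were examined in cultured cardiac fibroblasts (CFs), the cells that make most of the extracellular matrix of the heart. The set was defined by gene symbol and holds 9 genes: the mesothelial surface genes *Msln*, *Upk3b*, *Upk1b* and *Lrrn4*, the transcription factor gene *Bnc1*, the simple keratin genes *Krt8*, *Krt18* and *Krt19*, and *Cdh1*, which encodes E-cadherin. A row was found for 8 of them among the 19446 genes of the table. No row carried *Krt8*, whose expression was not analysed here. At least 10 reads in at least 2 libraries, the minimum for testing, were reached by 7 members and by 15948 genes in all, and *Cdh1* was below it.

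RNA-seq had been performed on CFs from the hearts of 5-week-old C57BL/6J mice in 2 groups of 3 libraries, wild type (WT) and CharmeKO. CharmeKO mice carry a polyadenylation signal inserted in *Charme*, the locus of a long non-coding RNA, and WT mice carry none. The labels give no treatment for either group. In both groups, cells had grown out of atrial fragments of pooled littermates and were kept on fibronectin in serum-rich medium, so that the cultures stand for atrial outgrowth cells and not for ventricular or freshly isolated CFs. The methods describe experiments in general as resting on at least 3 separate isolations of primary cells, which the 3 libraries of a group would match, but the labels do not name the isolation of each library.

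The heart is wrapped in the epicardium, a single sheet of mesothelial cells. Mesothelial cells are unusual in joining an epithelial surface, with keratins and junctions, to mesodermal origin, and in the embryo the epicardium gives rise to many cardiac fibroblasts through an epithelial-to-mesenchymal transition (EMT). Mesothelin (*Msln*) and the uroplakins (*Upk3b*, *Upk1b*) sit on the mesothelial surface, keratins pair as type I (*Krt18*, *Krt19*) with type II (*Krt8*) chains to form filaments, and E-cadherin holds epithelial cells together and is repressed during EMT.

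Each library held 38330019 to 46797446 reads assigned to genes, so 3 reads, the most that a count of 0 allows, equal 0.0641 to 0.0783 CPM (reads scaled by the library total). For the feature taken as *Charme*, CUFF405, WT 1, 2 and 3 held 5, 15 and 11 reads, against 0, 6 and 3 in CharmeKO 1, 2 and 3. These counts are low in both groups, and the authors describe adult CFs as not expressing *Charme*. All 12 fibroblast markers of a fixed list were tested and present in every library, with *Col1a1*, the main fibrillar collagen chain, at a mean level of 95662 normalised reads per kilobase of exon. Of 10 cardiomyocyte markers 6 had no row, among them *Myh6*, *Nppa* and *Myl7*, while *Tnnt2*, the troponin T of heart muscle, had 57.1 to 757 normalised reads. Summed levels ran from 24.9 to 399 CPM for the haematopoietic markers and from 1.88 to 9.22 CPM for the endothelial ones. For the smooth muscle and pericyte markers they ran from 288 CPM in CharmeKO 2 to 5748 CPM in WT 3.

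The promoters of 3 members are shown because *Upk3b* and *Lrrn4* were highest in the same libraries while *Bnc1*, which marks the same tissue, was not. They are the bases before the RefSeq transcription start (GRCm38.p6) as far as these lie outside the annotated gene, 5′ to 3′ on the strand of the gene. *Upk3b* (chr5:136038246-136038495, plus strand) and *Lrrn4* (chr2:132880892-132881112, minus strand) each hold a TEAD core (GGAATG, or CATTCC on the other strand), and *Bnc1* (chr7:81992300-81992549, minus strand) holds GC boxes (GGGCGG, or CCGCCC on the other strand). Capitals mark these matches.
*Upk3b*: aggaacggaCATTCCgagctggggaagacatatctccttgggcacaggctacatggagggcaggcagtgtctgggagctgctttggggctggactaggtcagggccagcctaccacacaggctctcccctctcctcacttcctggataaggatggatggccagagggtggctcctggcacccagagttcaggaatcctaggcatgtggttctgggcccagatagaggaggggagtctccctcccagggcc
*Lrrn4*: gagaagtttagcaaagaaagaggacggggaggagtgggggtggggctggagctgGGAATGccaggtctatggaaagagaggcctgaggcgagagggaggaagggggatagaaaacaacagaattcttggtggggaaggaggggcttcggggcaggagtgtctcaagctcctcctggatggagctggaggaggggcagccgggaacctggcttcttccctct
*Bnc1*: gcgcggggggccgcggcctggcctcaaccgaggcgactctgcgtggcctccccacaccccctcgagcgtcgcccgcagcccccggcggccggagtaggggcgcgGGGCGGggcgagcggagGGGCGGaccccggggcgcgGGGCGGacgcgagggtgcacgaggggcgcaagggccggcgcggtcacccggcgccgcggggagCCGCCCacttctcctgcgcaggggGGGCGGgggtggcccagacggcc

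Of the 9 members, 5 had a RefSeq promoter (*Lrrn4*, *Upk3b*, *Bnc1*, *Krt8* and *Krt18*). The TEAD core was found at positions -241 to -236 before the start of *Upk3b* and -196 to -191 of *Lrrn4*, in 2 of these 5 windows and in 12.6% of all 32851 windows of 250 bases. GC boxes were present only in *Bnc1*, which had 5 that did not overlap, against 32.7% of all windows with at least 1. The *Bnc1* window had 83.6% G and C, at percentile 99.7 of all windows, compared with 60.8% in *Upk3b*, 59.2% in *Lrrn4* and a median of 52.4%. The E-box core CAGGTG, bound by EMT repressors, was present in the windows of *Krt8* and *Krt18* and in 17.2% of all windows. The *Krt8* match, at positions -111 to -106, lies among the 140 bases of its window that are inside the annotated gene, and the *Krt18* match, at -214 to -209, lies outside the gene. A GATA core (AGATAA) was present in *Krt8*, and neither the WT1 and EGR core GCGTGGG nor the TATA box TATAAA was in any of the 5. All were searched on both strands, and a match describes the letters only. *Msln* and *Upk1b*, highest in the same libraries as *Upk3b* and *Lrrn4*, had no window, so no match was set against that pattern.

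The mesothelial surface genes are given first, in normalised reads, which are read counts divided by a size factor of the library, and with gene positions on GRCm38. *Upk3b* (ENSMUSG00000042985, chr5:136038496-136046487), a uroplakin that is among the most selective markers of mesothelium, had 4455, 322 and 651 normalised reads in WT 1, 2 and 3 and 4537, 656 and 297 in CharmeKO 1, 2 and 3. Its level in the 2 libraries numbered 1 was thus at least 6.79-fold above that of the other 4, while CharmeKO 1 and WT 1 differed by 1.02-fold. *Upk1b* (ENSMUSG00000049436, chr16:38773184-38800328), a tetraspanin that partners with other uroplakins in urothelium, was at 4648, 71.5 and 307 normalised reads in the WT libraries, against 4430.3, 71.8 and 20.9 in the CharmeKO libraries. It spanned 223-fold between its highest and lowest library, the widest range of the tested members, and again both libraries numbered 1 stood above the rest, by at least 14.5-fold.

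*Msln* (ENSMUSG00000063011, chr17:25748613-25754378), the gene of mesothelin, was less abundant but had the same order over the 6 libraries as *Upk3b*. It had 414, 19.2 and 49.4 normalised reads in WT 1, 2 and 3 and 603, 63.9 and 11.3 in CharmeKO 1, 2 and 3. *Lrrn4* (ENSMUSG00000043110, chr2:132868305-132880891), which encodes a leucine-rich repeat membrane protein, was at 3288, 63.0 and 239 normalised reads in the WT libraries, against 4781, 1162 and 181 in the CharmeKO libraries. The libraries numbered 1 were the highest for both genes, by at least 6.47-fold for *Msln* and 2.83-fold for *Lrrn4*. *Lrrn4* parted from the uroplakin *Upk1b* in the libraries numbered 2, where it was 4.18 higher in CharmeKO than in WT on the log2 scale and *Upk1b* differed by 0.0046.

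**Figure D1:**
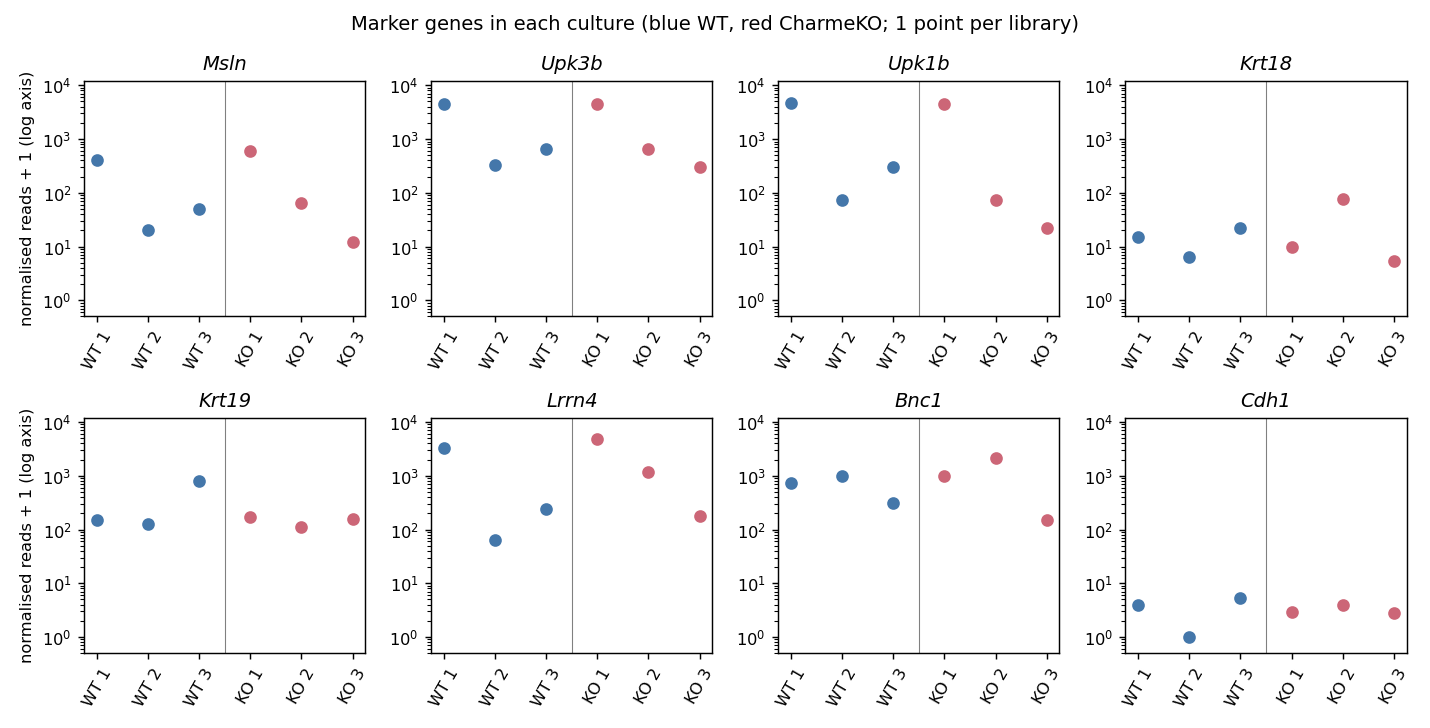
Level of each of the 8 members with a row, as normalised reads plus 1 on a log axis, in the 3 WT (blue) and 3 CharmeKO (red) libraries, 1 point per library. *Msln*, *Upk3b*, *Upk1b* and *Lrrn4* are highest in WT 1 and CharmeKO 1, whereas *Krt18* peaks in CharmeKO 2 and *Krt19* in WT 3.

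Both libraries numbered 1 were above the other 4 for 4 of the 7 tested members, compared with 23.6% of all genes tested. They were at least 4-fold above on the scale of normalised reads plus 1 for 3 members (*Msln*, *Upk3b* and *Upk1b*), compared with 0.821% of all genes. These counts describe the libraries and were not tested, since the labels do not say what libraries of equal number share. In bulk samples, more mesothelial-type cells and more of these RNAs per cell cannot be told apart. Among haematopoietic markers, both libraries numbered 1 were above the rest for 6 of 8 tested and at least 4-fold above for 0 of 8. Their summed level was 187, 113.7 and 44.1 CPM in WT 1, 2 and 3 and 399, 319 and 24.9 CPM in CharmeKO 1, 2 and 3, so that CharmeKO 2 was above WT 1. Of the defining immune markers, *Ptprc*, the gene of CD45, was at 0 in CharmeKO 3, where the mesothelial genes *Msln*, *Upk3b* and *Upk1b* were also lowest. The mesothelial gene *Lrrn4* was instead lowest in WT 2, at 63.0 normalised reads compared with 181 in CharmeKO 3. So was the haematopoietic marker *Csf1r*, at 294 compared with 330. *Ptprc* and *Csf1r* were named after their values were seen. The part of these cells in the result was not tested.

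The remaining members followed other libraries. *Bnc1* (ENSMUSG00000025105, chr7:81966672-81992292), which encodes the zinc finger protein basonuclin 1, had 743, 1003 and 308 normalised reads in WT 1, 2 and 3 and 973, 2093 and 146 in CharmeKO 1, 2 and 3. It was highest in CharmeKO 2 and lowest in the libraries numbered 3, and the groups overlapped. An annotated pseudogene, 4833418N17Rik, overlaps it on the opposite strand. Reads had been counted by strand. *Krt19* (ENSMUSG00000020911, chr11:100140810-100148665), a small type I keratin of simple epithelia, was at 148, 125 and 781 normalised reads in the WT libraries, against 173, 112.1 and 157 in the CharmeKO libraries. WT 3 alone stood apart, and the other 5 libraries lay close together.

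*Krt18* (ENSMUSG00000023043, chr15:102028180-102032027), the type I partner of *Krt8*, was the least abundant of the tested members. WT 1, 2 and 3 gave 14, 5 and 19 reads, against 9, 77 and 5 for CharmeKO 1, 2 and 3, and CharmeKO 2 stood above all others. *Krt7*, a type II keratin of mesothelium and ducts, was also highest there, at 77.7 normalised reads compared with 2.61 to 17.7 in the others. *Krt20*, a keratin of gut epithelium, was highest in WT 3 together with *Krt19*, at 103 normalised reads compared with 0 to 9.85. *Krt7* was named after its values were seen. The log2 ratio of *Krt19* to *Krt18* was 3.33, 4.31 and 5.16 in WT and 4.17, 0.56 and 4.88 in CharmeKO, and the SD among CharmeKO libraries, 2.32, exceeded the difference of -1.06 (two-sided exact permutation p = 0.6, where 3 against 3 libraries allow no less than 0.1). Without CharmeKO 2 it was 0.26. A ratio of *Krt8* to *Krt18* was not computed.

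For *Cdh1* (ENSMUSG00000000303, chr8:106603351-106670246), WT 1, 2 and 3 gave 3, 0 and 4 reads, against 2, 3 and 2 for CharmeKO 1, 2 and 3. These counts lie at or near the 3 reads that a count of 0 allows, and no fold is given. Per kilobase of exon, its mean level was 0.509 normalised reads, compared with 2719 for *Cdh2*, the N-cadherin of mesenchymal cells, 961 for *Cdh11*, the cadherin of fibroblasts, and 125 for *Cdh3*, the P-cadherin of basal epithelia.

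Levels were then set beside each other per kilobase of exon. The mean over the 6 libraries was 762 normalised reads per kilobase for *Upk1b*, 516 for *Upk3b*, 436 for *Lrrn4*, 189 for *Bnc1*, 134 for *Krt19*, 63.1 for *Msln* and 14.9 for *Krt18*. That order was not kept by single libraries, so neighbours in it could not be separated beyond their spread. In WT 1 and CharmeKO 1, *Upk1b* led with 2225 and 2121 normalised reads per kilobase, and *Upk3b* and *Lrrn4* followed. *Bnc1* led in both libraries numbered 2, with 216 in WT 2 and 451 in CharmeKO 2. *Krt19* led in WT 3 with 421, whereas in CharmeKO 3 *Krt19* at 84.4 and *Upk3b* at 84.0 could not be ordered. WT and CharmeKO libraries of equal number thus shared their leading marker in pairs 1 and 2. Summed over the 8 members, the level ran from 20.1 CPM in CharmeKO 3 to 361 CPM in CharmeKO 1.

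The variance of each member on the log2(value + 1) scale was divided into parts for genotype, replicate number and the rest. Replicate number held 92.7% of it for *Upk3b*, 87.1% for *Bnc1*, 86.4% for *Upk1b* and 86.0% for *Msln*, and less for *Lrrn4* (71.1%), *Krt19* (48.8%) and *Krt18* (12.4%). Genotype held from 0.0075% for *Upk3b* to 15.8% for *Krt19*. Over the summed variance of all tested genes, 67.7% went with replicate number and 10.6% with genotype. The SD of *Upk1b* over the 6 libraries, 3.27 log2 units, was at least as large as that of 99.9% of tested genes. It was 2.49 for *Lrrn4* (99.0%), 2.28 for *Msln* (98.3%), 1.78 for *Upk3b* (95.5%), 1.41 for *Krt18* (91.6%), 1.37 for *Bnc1* (91.0%) and 1.03 for *Krt19* (84.0%), compared with a median of 0.42 over all tested genes.

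**Figure D2:**
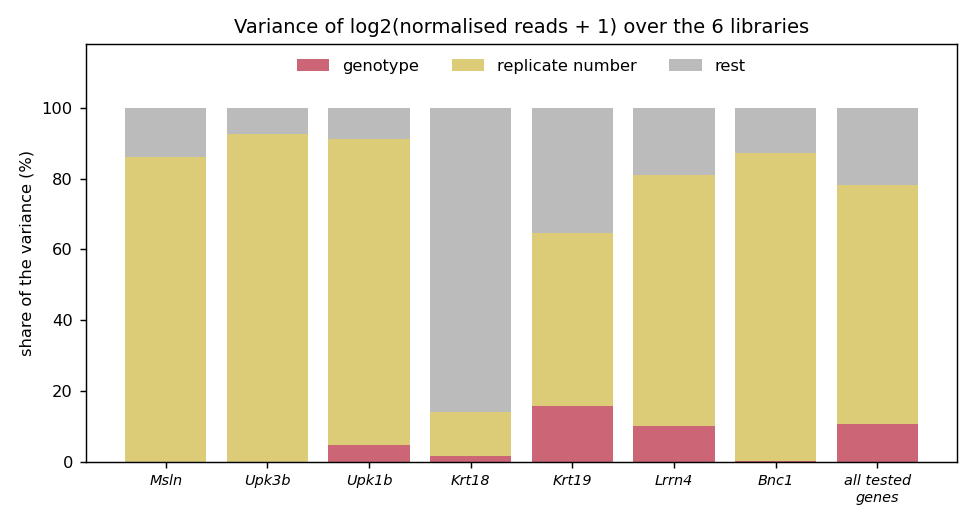
Share of the variance of log2(normalised reads + 1) over the 6 libraries, in percent, that goes with genotype, with replicate number and with neither, for the 7 tested members and over all tested genes. Replicate number takes 86.0% or more for *Msln*, *Upk3b*, *Upk1b* and *Bnc1*, and the rest takes 86.1% for *Krt18*.

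The comparison of CharmeKO with WT asked whether the genotype of the mice went with a change in these markers. None of the 7 members passed an adjusted p of 0.05 in limma, where 0 of 15948 genes did (0%), and the adjusted p of each was 0.9999. Before adjustment, a p under 0.05 was reached by 0 members and by 0.897% of all genes. In limma with the replicate number as a block, it was reached by 0 members and by 857 of 15948 genes. edgeR called 0 members and 0 genes, DESeq2 0 members and 8 genes (0.0502%) with no p for *Upk1b*, and DESeq2 blocked on replicate number 0 members and 64 genes (0.401%). WT and CharmeKO values overlapped for all 7 members, whereas they did not overlap for 4.11% of tested genes (1.98% lower and 2.14% higher in CharmeKO).

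*Upk3b* averaged 1809.7 ± 2297 normalised reads across WT libraries, against 1829.8 ± 2351 across CharmeKO libraries (mean ± SD, n = 3 each). Its log2 fold change on the log2(value + 1) scale was -0.028 (SE 1.28) and turned to 0.0062 with plain library sizes, 0.016 in edgeR and 0.011 in DESeq2. The 95% interval of this difference, -3.09 to 3.04, spans changes of several-fold in either direction, so these libraries do not show that the level was equal. With the replicate number as a block it narrowed to between -1.17 and 1.12. For *Msln* the WT mean was 161 ± 219 and the CharmeKO mean 226 ± 327, and the difference was 0.063 on the log2 scale (SE 1.65). For *Upk1b* the WT mean was 1675 ± 2577 and the CharmeKO mean 1508 ± 2531, and the difference was -1.29 on the log2 scale (SE 2.28). For *Lrrn4* the WT mean was 1197 ± 1813 and the CharmeKO mean 2041 ± 2423, and the difference was 1.44 on the log2 scale (SE 1.69). The log2 fold change was 0.13 (SE 0.989) for *Bnc1*, -0.75 (SE 0.715) for *Krt19* and 0.32 (SE 1.10) for *Krt18*. *Lrrn4* was the only member whose direction was the same when each library was left out in turn, and its value then ran from 0.17 without WT 2 to 3.02 without WT 1. Without both libraries numbered 1 it was 1.89, *Upk1b* was -1.90, and *Msln* turned to -0.18.

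**Figure D3:**
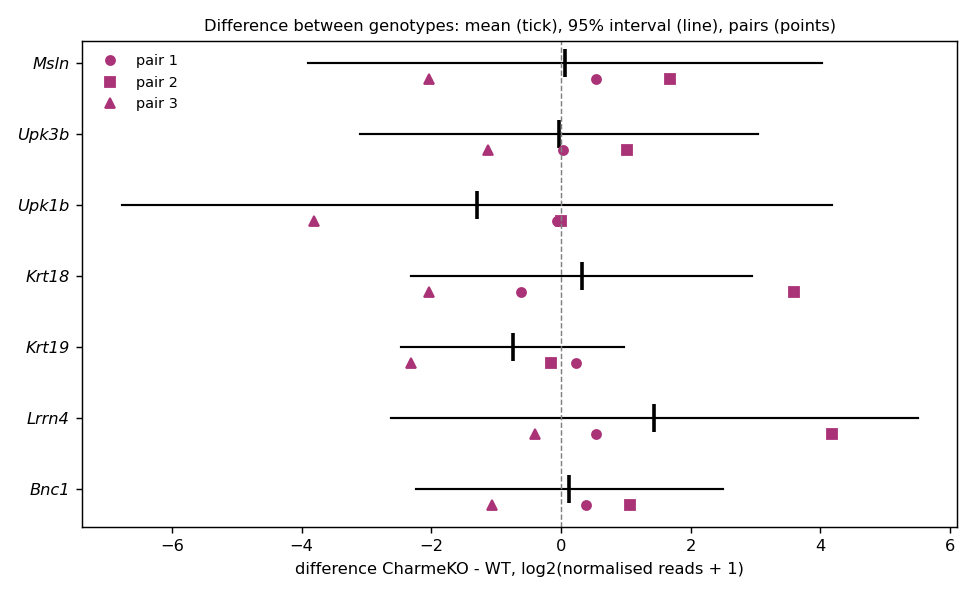
Difference between CharmeKO and WT on the log2(normalised reads + 1) scale for the 7 tested members, with the mean as a tick, its 95% interval from limma as a line and the 3 same-numbered pairs of libraries as points. Every interval includes 0, and pair 3 lies below 0 for all 7 members.

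The direction of the members differed between same-numbered pairs of libraries. In pair 1, 5 members were higher and 2 lower in CharmeKO, where 53.2% and 46.7% of all tested genes were, and the log2 differences ran from -0.62 for *Krt18* to 0.54 for *Msln*. In pair 2, 6 of the 7 were higher in CharmeKO, from 0.0046 for *Upk1b* to 4.18 for *Lrrn4*, and *Krt19* was at -0.16. In pair 3 all 7 were lower in CharmeKO, from -0.40 for *Lrrn4* to -3.81 for *Upk1b*, with a median of -2.03. Among all genes tested, 51.5% were higher and 48.3% lower in pair 2, and 49.4% were higher and 50.4% lower in pair 3, with medians of 0.014 and -0.0050. Of 8 haematopoietic markers, 8 were higher in CharmeKO in pair 1, 8 were higher in pair 2, and 7 were lower in pair 3. Of 10 smooth muscle and pericyte markers, 9 were lower in CharmeKO in pair 1, 10 in pair 2 and 8 in pair 3. In all 3 pairs 7 of these 10 were lower, as 14.0% of all genes were. Over all 6 libraries the smooth muscle list had a median log2 fold change of -1.63, with 0 genes called by limma, 2 at an unadjusted p under 0.05 and 2 called by blocked DESeq2. The part of these cells in the members' values was not tested. A single pair is 1 library against 1 and has no replicate check. CharmeKO 3 correlated no more with WT 3 (0.217) than with WT 2 (0.222), so pair 3 rests on the library number alone. No member moved the same way in all 3 pairs, which 14.0% of all genes did downward and 16.4% upward.

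Other genes of mesothelium and epicardium were read from a fixed list of 20, of which 19 had a row and 16 were tested. limma called 0 of the 16 and 0 had an unadjusted p under 0.05, with a median log2 fold change of -0.12 compared with 0.0022 over all genes tested. Both libraries numbered 1 were above the rest for 7 of the 16, compared with 23.6% of all genes tested, and at least 4-fold above for 1 of the 16 (*Gpm6a*), compared with 0.821%. *Gpm6a*, a membrane glycoprotein gene, had 1297, 6.41 and 190.1 normalised reads in WT 1, 2 and 3 and 1004, 56.0 and 109 in CharmeKO 1, 2 and 3. *Nkain4*, which encodes a partner of the sodium pump, was at 3355, 506 and 244 in the WT libraries, against 2216, 585 and 197 in the CharmeKO libraries. *Tbx18*, a transcription factor gene of the embryonic epicardium, was at 6694, 1429.7 and 2030.2 in the WT libraries, against 6351, 1127 and 1867 in the CharmeKO libraries. These 3 genes, of which *Gpm6a* and *Tbx18* were chosen after their values were seen, were highest in the libraries numbered 1. Others of the list were not. *Efemp1* was highest in CharmeKO 3, at 48651 normalised reads compared with 6026 to 17540 in the other libraries. *Podxl*, named after its values were seen, was lowest in WT 1 (103) and CharmeKO 1 (84.6). The summed level of the list was highest in CharmeKO 3, at 1821 CPM, compared with 1213 CPM in WT 1 and 1048 CPM in CharmeKO 1.

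*Wt1*, the best known transcription factor gene of the epicardium, did not share the pattern of *Gpm6a*, *Nkain4* and *Tbx18*. It had 213, 1011 and 711 normalised reads in WT 1, 2 and 3 and 301, 1500.2 and 217 in CharmeKO 1, 2 and 3, so that WT 1, CharmeKO 3 and CharmeKO 1 were its lowest libraries and CharmeKO 2, as for *Bnc1*, its highest. *Aldh1a2*, which makes retinoic acid in the epicardium, was highest in WT 3, as *Krt19* was, at 688, 40.6 and 1420.5 normalised reads in the WT libraries, against 669, 58.0 and 67.8 in the CharmeKO libraries. *Muc16*, whose product binds mesothelin, was listed at 0 in WT 2 and CharmeKO 2 and at up to 5.77 normalised reads elsewhere. *Wt1*, *Aldh1a2* and *Muc16* were named after their values were seen. By the rule on level and p, *Efemp1* (a fibulin, 9128 normalised reads per kilobase), *Aldh1a1* (a retinal dehydrogenase, 1542), *Nkain4* (955) and *Sema3d* (a secreted guidance cue, 721) had the highest mean levels, and *Aldh1a1*, *Sema3d* and *Tcf21* the lowest p, with log2 fold changes of 0.74 (SE 0.754), -0.76 (SE 0.786) and -0.85 (SE 0.974).

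**Figure D4:**
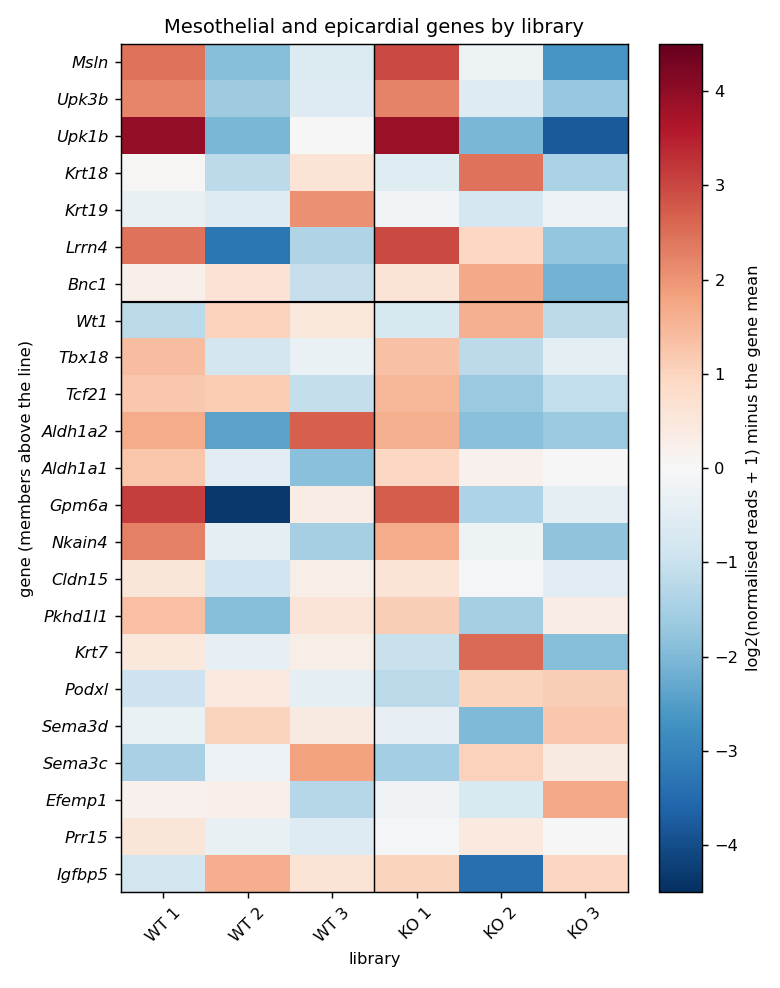
Level of the 7 tested members (above the line) and of the 16 other tested mesothelial and epicardial genes in each library, coloured by log2(normalised reads + 1) minus the mean of the gene over the 6 libraries, WT left and CharmeKO right. *Msln*, *Upk3b*, *Upk1b*, *Lrrn4*, *Gpm6a*, *Nkain4* and *Tbx18* are red in WT 1 and CharmeKO 1, while *Wt1* and *Bnc1* are highest in CharmeKO 2.

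Genes of epithelial junctions and polarity were mostly scarce. Of 33 on the list, 10 had no row (among them *Epcam*, *Esrp1* and *Grhl2*, which define most epithelia) and 17 were tested. limma called 0 of the 17, with 0 at an unadjusted p under 0.05 and a median log2 fold change of 0.020. The highest mean levels per kilobase were those of *Jup* (plakoglobin, 372 normalised reads), *Ppl* (periplakin, 219), *Cdh3* (125) and *Esrp2* (an epithelial splicing regulator, 112.9). *Esrp2* was steady, with 378 to 577 normalised reads over the 6 libraries. The lowest p belonged to *Pkp2*, a desmosomal plakophilin also used by heart muscle, at a log2 fold change of -1.02 (SE 0.588), to *Cdh3* at -1.34 (SE 1.14) and to *Cgn*, the tight junction protein cingulin, at 0.98 (SE 0.910).

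Of 13 other keratins, 7 had no row and 5 were tested, with 0 called by limma, 0 at an unadjusted p under 0.05 and a median log2 fold change of -0.37. *Krt80*, a keratin of differentiating epithelia, and *Krt10* had the highest mean levels per kilobase, 16.8 and 16.2 normalised reads, close to the 14.9 of *Krt18*. *Krt13* and *Krt20* had the lowest p, with log2 fold changes of -1.89 (SE 1.08) and -2.75 (SE 1.59).

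All 12 genes of the list of EMT regulators and mesenchymal adhesion were tested, and limma called 0 of them, with 0 at an unadjusted p under 0.05 and a median log2 fold change of -0.24. *Vim*, the gene of vimentin, led with 28222 normalised reads per kilobase, followed by *Cdh2*, *Prrx1* (1602) and *Snai1* (1247), a repressor of *Cdh1*. *Zeb1* and *Snai1*, both of them E-cadherin repressors, had the lowest p, with log2 fold changes of -0.44 (SE 0.193) and -0.36 (SE 0.179). Both were lower in CharmeKO in all 3 pairs, as 4 of the 12 genes and 14.0% of all genes were. They were named for their low p, so their pairs are no separate check. The repressor genes *Zeb2* and *Snai2* were lower in 2 of the 3 pairs. *Cdh11* was at -0.63 (SE 0.549). Among uroplakins and tetraspanins, 7 of 10 were tested and limma called 0, with 0 at an unadjusted p under 0.05 and a median of 0.088. *Upk1a*, the paralogue of *Upk1b* and named after its values were seen, lay between 11.3 and 34.4 normalised reads, and the widely expressed tetraspanin *Cd81* had a mean of 11070.1 per kilobase. *Tspan4* and *Cd9* had log2 fold changes of 0.47 (SE 0.203) and -0.16 (SE 0.228).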

How the data were processed

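Poly(A) RNA-seq libraries of cultured CFs (3 WT, 3 CharmeKO) were analysed. The authors aligned reads with STAR, counted them per gene with the reverse-strand column on an Ensembl release to which *Charme* was added, and normalised with DESeq2. The deposited signal values are thus read counts divided by a size factor, and 100% of values were whole multiples of 1 read (tolerance 0.001 reads), so that reads were recovered. The notes name GRCm39, whereas gene positions and exon lengths here come from GRCm38, for which 19373 of 19446 genes matched. The feature CUFF405 was taken as *Charme* by inference.

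Testing covered genes that reached 10 reads in 2 or more libraries and was done with limma 3.58.1 (mean-variance trend, log2(value + 1), genotype only, Benjamini-Hochberg adjusted p under 0.05, two-sided). edgeR 4.0.16 and DESeq2 1.42.0 on the recovered reads were alternatives. The fits were also run on simulated data, but the outcome is not reported here and no result rests on it. After subtracting group means, WT and CharmeKO libraries of equal number correlated at 0.762, 0.514 and 0.217 over genes (others -0.643 to 0.222). Each was above 0.1, so numbers were taken to pair libraries. WT 2 with CharmeKO 3, at 0.222, was also above 0.1, so the check did not single out pair 3. Named genes were all members, with up to 4 of highest mean level per kilobase and 3 of lowest p from each list, and the 5 most like the members. Members and lists were chosen with earlier results of these data known. Intervals and floors for counts cover counting error only.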

Additional observations from a re-analysis of the deposited data

How the results depend on the processing

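No member passed an adjusted p of 0.05 under any of 18 alternatives, and the lowest adjusted p of a member was 0.803 (limma with the replicate block). Over all genes the count of 0 became 8 under DESeq2 (Wald) and 64 once DESeq2 was given the replicate block, and 0 with limma or edgeR and the block. Over the lists it became 2 with DESeq2 and the block. The cause was not tested. The block changed no other call, and the paired *Krt19* to *Krt18* difference stayed at -1.06 (exact p = 0.75, where 3 pairs allow no less than 0.25). The direction also changed in the following fits. *Upk3b* was 0.0062 with plain library sizes, 0.016 in edgeR and 0.011 in DESeq2, and without both libraries numbered 1, an alternative chosen after seeing the data, *Msln* was -0.18 and *Bnc1* -0.0038. Leaving out 1 library at a time gave log2 fold changes of -1.41 to 1.40 for *Msln*, -1.15 to 1.06 for *Upk3b*, -3.56 to 0.36 for *Upk1b*, -0.82 to 1.10 for *Krt18*, -1.23 to 0.092 for *Krt19*, 0.17 to 3.02 for *Lrrn4* and -0.70 to 1.22 for *Bnc1*, a ratio difference of -1.90 to 0.26, and 0 calls each time. The planned *Krt8* to *Krt18* ratio was not run. With 3 libraries a group, the intervals of the members admit several-fold changes.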

Other observations

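Over the 6 libraries, the genes whose log2 level was most like the mean profile of the tested members were *Epas1*, which encodes the hypoxia-inducible factor HIF2A (Pearson's r = 0.994), *Cyb561d2* (0.993), *Kdsr*, an enzyme of sphingolipid synthesis (0.992), *Ubtd1* (0.991) and *Frzb*, a secreted Wnt antagonist (0.990). Those most like *Msln* were *Sumf1*, which activates sulfatases (0.995), the glutamate transporter gene *Slc1a6* (0.995), *Aplp1* (0.995), the proton pump gene *Atp6v0b* (0.994) and the signal peptidase gene *Sec11c* (0.994). Of 11577 genes ranked, 301 had an r of at least 0.9 with the members' profile and 681 with *Msln*. A high r was thus not particular to the genes named, though these counts do not say how many reached 0.990. All these correlations describe 6 points that share library and culture. The libraries numbered 1 were the highest for each gene named, but did not always stand far apart. For *Frzb*, CharmeKO 2 had 1817 normalised reads, compared with 2347 in WT 1 and 2448 in CharmeKO 1.

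Beyond the members, the tight junction gene *Cldn3* had 245, 1.07 and 15.4 normalised reads in WT 1, 2 and 3 and 207, 1.97 and 1.74 in CharmeKO 1, 2 and 3. *Spint2*, a protease inhibitor gene of epithelia, had 423 normalised reads in CharmeKO 2, where *Krt18* and *Krt7* were highest, compared with 5.22 to 66.0 in the others. Not all such genes were highest there. *Spint1* was highest in CharmeKO 1, at 43.3 normalised reads compared with 22.6 in CharmeKO 2, and *Krt19* was lowest in CharmeKO 2, at 112.1. *Rspo1*, a Wnt agonist gene of mesothelium, had 98.3 in CharmeKO 2 compared with 3.48 to 8.79 in the others. *Cldn3*, *Spint2*, *Spint1* and *Rspo1* were chosen after their values were seen.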
